A study of Mus musculus with 6 samples.

Results

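The zona pellucida genes Zp1, Zp2 and Zp3, the oocyte growth factor genes Gdf9 and Bmp15, and the oocyte genes Figla, Nobox, Oosp1 and Mos were followed as residual oocyte mRNA in mouse 2-cell embryos. These 9 genes were chosen by symbol for being transcribed in the growing oocyte, and they are 9 of the 48967 genes with counted exonic parts in the series. All 9 symbols matched a gene, and 8 passed the filter on low counts, Figla being the gene that did not. RNA was sequenced from 6 libraries, 3 of control and 3 of delipidated embryos, each made from a pool of 3 embryos, and the comparison asked how far removal of lipid droplets from the zygote left maternal mRNA levels different at the 2-cell stage. All embryos were wild type and of strain F1 (C57Bl/10 X CBA/H), and were kept in fatty acid-free KSOM from 0.5 to 2.0 dpc, the label naming the collection time as day 2. Delipidated embryos came from zygotes that were exposed to cytochalasin B, spun at 4200 g and again at 9500 g for 10 min each, opened at the zona with a laser and relieved of their lipid droplets by aspiration into a pipette of 12 µm bore. Control embryos came from control zygotes, and the labels, which carry the procedure's text for every library, do not say which of its steps the controls also went through. The embryos of a group were drawn at random from 1 experiment and split into pools, so the replicates are pools and not separate experiments. The kit made stranded libraries from total RNA after depletion of ribosomal RNA, straight from the embryos with no RNA extraction.

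Depth was counted as the sum over genes of the counts on their exonic parts, the non-overlapping pieces into which the annotation splits the exons of a gene. It came to 12164963, 16165958 and 12980787 counts in control pools 1, 2 and 3. In delipidated pools 1, 2 and 3 it came to 20059460, 16332103 and 14683741 counts. The number of genes with at least 1 count went the other way, at 22855, 22437 and 20582 in the control pools against 17091, 19408 and 20158 in the delipidated pools. A read that spans several parts is counted in each, so the sum for a gene lies above its number of reads.

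The growing oocyte surrounds itself with the zona pellucida, a coat of glycoproteins that binds sperm and shields the early embryo, and it signals to its granulosa cells with the secreted factors GDF9 and BMP15. Transcription stops before ovulation, so the mRNA found in the zygote was made and stored beforehand, some of it with a short poly(A) tail that is lengthened when translation is needed. Most of this store is broken down between meiotic maturation and the 2-cell stage, when the embryo's own genome becomes active. These genes therefore measure what is left of it, relative to the other RNA counted.

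Among the zona genes, levels were taken in CPM, the counts of a gene scaled by the TMM method to a common size of library over the genes tested. Zp1, which encodes a protein that cross-links the zona filaments, was at 9.70, 27.3 and 25.5 CPM in control pools 1, 2 and 3 and at 31.9, 17.1 and 25.1 CPM in delipidated pools 1, 2 and 3. Control pool 1 was the lowest and delipidated pool 1 the highest, and the remaining pools of both groups lay between them, so the groups overlap. The group means were 20.8 ± 9.66 and 24.7 ± 7.39 CPM (SD, n = 3 each), and the fitted log2 fold change, delipidated over control, was 0.25 with a 95% interval from -0.76 to 1.26 (edgeR, adjusted p = 1.00). This sign rested on control pool 1, without which the log2 fold change was -0.08. CPM give the level of a gene relative to the others, so a change in RNA amount shared by all genes would not show. Each library is also a bulk pool. A lower relative level in every embryo therefore cannot be told from fewer embryos or cells holding the mRNA, for any gene.

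Zp2, whose protein binds sperm and is cleaved after fertilization, was at 92.5, 60.5 and 126 CPM in the control pools and at 44.9, 83.3 and 82.1 CPM in the delipidated pools. Control pool 3 stood above every other library and delipidated pool 1 below, with control pool 2 under the other delipidated pools. Its group means were 92.9 ± 32.6 and 70.1 ± 21.8 CPM (SD, n = 3 each). The log2 fold change was -0.41 (interval -1.14 to 0.33), with the smallest unadjusted p of the 8 members tested. When Zp2 was measured by the part with the most counts in place of the sum over parts, its log2 fold change was 0.03. Zp3, which encodes the partner of ZP2 in the zona filament, was at 28.5, 42.2 and 45.8 CPM in the control pools and at 39.5, 42.6 and 34.0 CPM in the delipidated pools. Here control pool 1 was the lowest library and control pool 3 the highest, so every delipidated pool fell within the control range. The log2 fold change of Zp3 was -0.00 (interval -0.71 to 0.70), and its coefficient of variation over the 6 libraries was 16.5%, against 35.1% for Zp1 and 34.1% for Zp2.

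Together the 3 zona genes held 131, 129.9 and 197 CPM in the control pools and 116, 143 and 141 CPM in the delipidated pools. The high value of control pool 3 came with its high Zp2. The 3 genes did not share an order of libraries, since control pool 1 was lowest for Zp1 and Zp3 and above its group's lowest pool for Zp2.

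Of the growth factors, Gdf9 was at 113, 74.7 and 76.4 CPM in the control pools and at 87.1, 109 and 84.1 CPM in the delipidated pools. Its highest and lowest libraries were both controls, with the delipidated pools in between. The means of 87.9 ± 21.5 and 93.5 ± 13.8 CPM (SD, n = 3 each) gave a log2 fold change of 0.09, with an interval of -0.48 to 0.66. Among the members it had the smallest ratio of the highest to the lowest library, 1.51. Bmp15, the X-linked relative of Gdf9 that acts with it on granulosa cells, was at 283, 123 and 195 CPM in the control pools and at 147, 202 and 389 CPM in the delipidated pools. Delipidated pool 3 was the highest and control pool 1 the next, and the other pools of the groups were interleaved. Its log2 fold change was 0.29 (interval -0.51 to 1.10). It rested on delipidated pool 3, without which it was -0.20.

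Per kilobase of summed exonic parts, Bmp15 was above Gdf9 in 6 of 6 libraries. The ratio of Bmp15 to Gdf9 on that scale was 1.67, 1.10 and 1.69 in the control pools and 1.12, 1.23 and 3.07 in the delipidated pools. Delipidated pool 3 therefore stood apart in the balance of the pair as well as in the level of Bmp15, since its Gdf9 was within the range of the other libraries.

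The transcription factor genes lay far apart in level. Figla encodes the basic helix-loop-helix factor that switches on the zona genes, and it had 4, 18 and 2 counts in the control pools and 0, 14 and 0 in the delipidated pools. These are 0.337, 1.09 and 0.152 CPM in the control pools and 0, 0.860 and 0 CPM in the delipidated pools. Control pool 2 and delipidated pool 2 held most of them, and a count of 0, which allows up to 3 counts, allows up to 0.148 CPM in delipidated pool 1 and 0.212 CPM in delipidated pool 3, for counting error only. All Figla counts fell on the parts of its first coding exons, parts 2 and 3 of 5 from the 5′ end, and none on parts 4 and 5. Figla failed the filter on low counts and has no fold change in the fit reported here. In the fits with no filter, by edgeR and by DESeq2, it was tested and not called. How large a difference such low counts could show was not tested.

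Nobox, a homeobox factor of the early follicle, was at 32.7, 12.0 and 26.8 CPM in the control pools and at 22.1, 23.9 and 33.9 CPM in the delipidated pools. Control pool 2 was the lowest library and delipidated pool 3 the highest, with control pool 1 close under it. The log2 fold change was 0.16 (interval -0.78 to 1.10), and by the part with the most counts it was -0.09. Its sign also turned without control pool 2, at -0.16, and without delipidated pool 3, at -0.05.

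Oosp1, which encodes an oocyte-secreted protein, was the most abundant member, at 561, 338 and 503 CPM in the control pools and 382, 427 and 570.5 CPM in the delipidated pools. Delipidated pool 3 and control pool 1 were within a few percent of each other at the top, and control pool 2 was the lowest. The means were 467 ± 116 and 459.7 ± 98.6 CPM (SD, n = 3 each), the log2 fold change was -0.02, and its interval of -0.53 to 0.48 was the narrowest of the 8. Mos encodes the kinase that starts the MAPK cascade holding the egg in metaphase of the second meiotic division. It was at 1.35, 1.69 and 3.27 CPM in the control pools and at 2.86, 1.11 and 0.565 CPM in the delipidated pools, from 16, 28, 43, 58, 18 and 8 counts in that order of libraries. Control pool 3 and delipidated pool 1 held the most and delipidated pool 3 the least. Its log2 fold change of -0.47 had an interval of -2.97 to 2.03, the widest of the 8, so differences of several fold in either direction were within it. Without delipidated pool 1 it was -1.32, without control pool 3 it was -0.01, and without delipidated pool 3 it was -0.08.

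**Figure D1:**
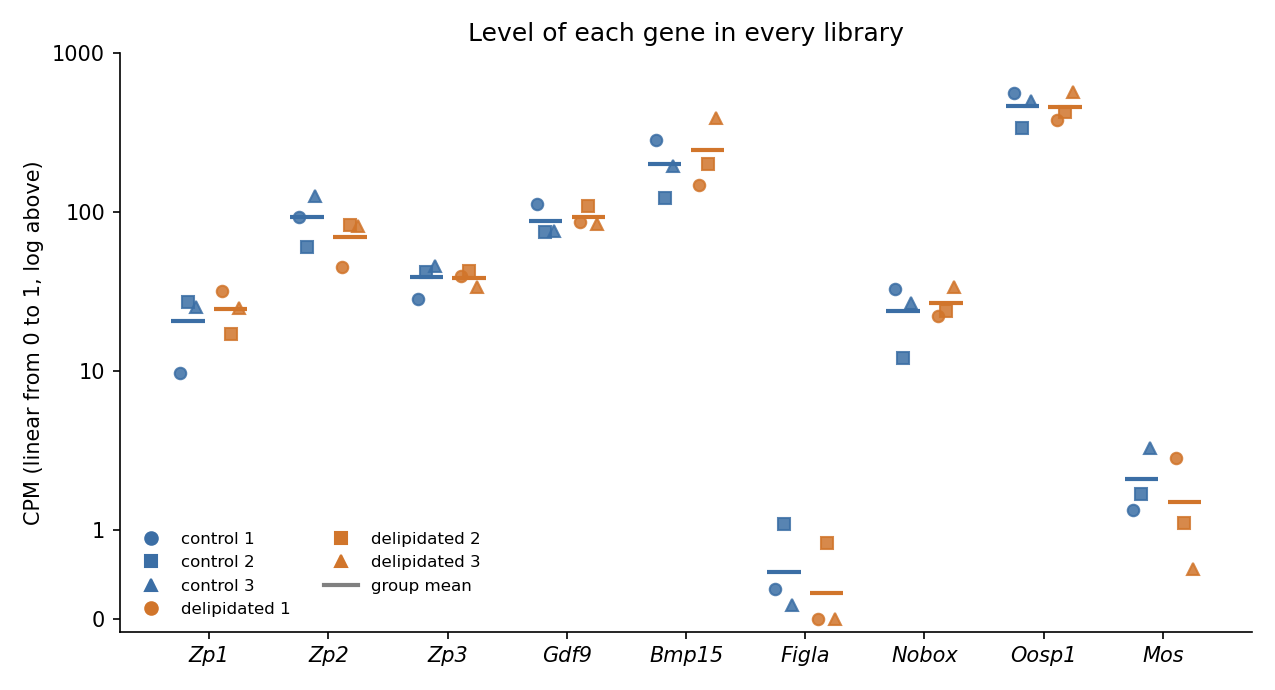
Level of each of the 9 genes in every library, in CPM on an axis that is linear from 0 to 1 and logarithmic above; each point is 1 library (blue, control; orange, delipidated) and each bar a group mean. The groups overlap for every gene, Oosp1 lies between 338 and 570.5 CPM, and Figla is at 0 in delipidated pools 1 and 3.

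Set side by side, 0 of the 8 members tested were called different at an adjusted p under 0.05 with a log2 fold change beyond 1 by edgeR, which called 0.0% of the 16020 genes tested. At an unadjusted p under 0.05 the count was 0 of 8 members, against 463 of all genes tested (2.89%). On the same 16020 genes limma-voom called 0. When genes of low count were kept in, the Wald test of DESeq2 called 49 of 30850 genes (0.159%), none of them a member, and edgeR called 30 genes, none of them a member. The groups did not overlap for 0 of 8 members and for 8.86% of all genes tested. Of the 8 log2 fold changes 4 were positive and 4 negative, against 50.0% positive over all genes tested, and their median was 0.04 against -0.00. The adjusted p was 1.00 for each of the 8, and the signs of Zp3, Gdf9 and Oosp1, which lay near 0, also turned when single libraries were left out. These p-values measure the spread between pools of 1 experiment. The intervals of Zp3, Gdf9 and Oosp1 lay within -1 to 1, and those of Zp1, Zp2, Bmp15, Nobox and Mos reached past -1 or 1.

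**Figure D2:**
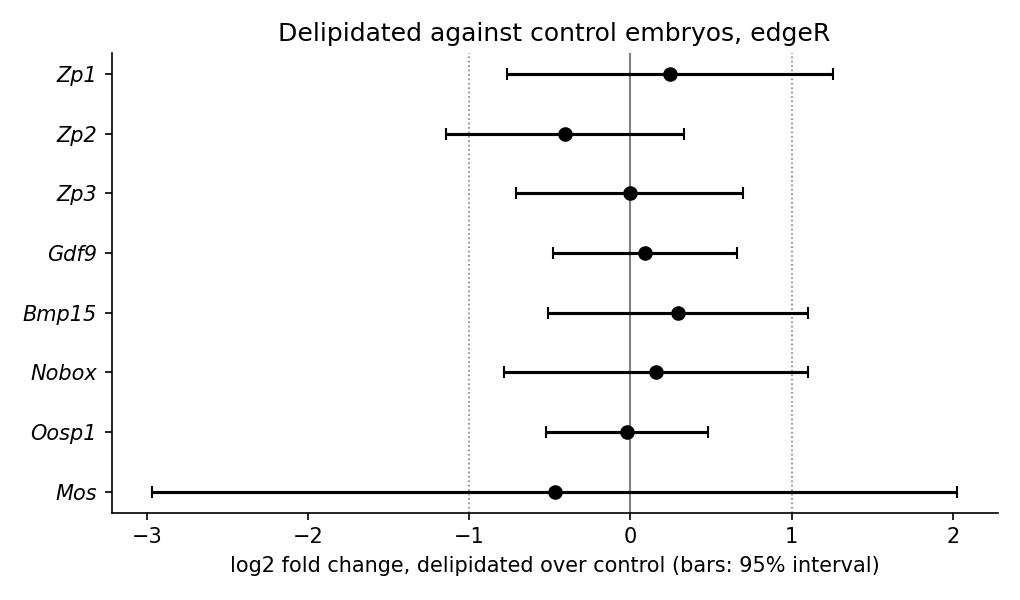
Fitted log2 fold change (horizontal axis, delipidated over control, edgeR) of the 8 genes that passed the filter; points are estimates, bars 95% intervals, and dotted lines mark the fold change threshold at -1 and 1. Every interval spans 0, from the narrowest, Oosp1 at -0.53 to 0.48, to the widest, Mos at -2.97 to 2.03.

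The levels of the members were ordered on the scale of CPM per kilobase of summed exonic parts, as the mean and SD over the 6 libraries. Oosp1 came at the top with 477 ± 99.0 CPM per kb, a level that 56 of the tested genes exceeded. Bmp15 followed at 73.0 ± 32.0 and Gdf9 at 44.7 ± 8.10 CPM per kb. Zp2, at 29.9 ± 10.2, and Zp3, at 29.3 ± 4.83 CPM per kb, were level with each other, Zp2 being higher in 3 of 6 libraries. Nobox was at 12.6 ± 3.97 and Zp1 at 11.5 ± 4.03 CPM per kb, and Nobox was higher in 4 of 6 libraries. Mos, at 1.25 ± 0.724, and Figla, at 0.486 ± 0.554 CPM per kb, lay under the median of the tested genes, which was 3.47 CPM per kb. The residual store therefore spanned more than 2 orders of magnitude between genes that all belong to the growing oocyte.

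Neighbours in this order had separate ranges over the 6 libraries at 3 steps, Oosp1 over Bmp15, Zp3 over Nobox, and Zp1 over Mos. At the other 5 steps the ranges overlapped. Since reads are counted in every part they touch, the order was also read against a lower bound, the count on the most-counted part of a gene. Oosp1's lower bound, a mean of 115 CPM per kb, was above the full sum of Bmp15 in 6 of 6 libraries, so its place at the top did not rest on multiple counting. The bound of Zp1 was above the sum of Mos in 5 of 6 libraries, and that of Bmp15 above the sum of Gdf9 in 3 of 6. The bound of Zp3 was above the sum of Nobox in only 1 of 6, so the step between those genes could not be separated from multiple counting. Mos has 1 part, so its bound and its sum are the same.

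Spread between libraries differed among the members as well. The coefficient of variation over the 6 libraries was 18.1% for Gdf9, 20.8% for Oosp1, 31.7% for Nobox, 43.9% for Bmp15 and 58.1% for Mos. Among the 8127 tested genes with a mean of at least 10 CPM the median was 27.2%, so Zp3, Gdf9 and Oosp1 varied less than that and Zp1, Zp2, Bmp15 and Nobox more. Control pool 2 was the lowest library for 4 of the 8 members tested, Gdf9, Bmp15, Nobox and Oosp1, and the highest for none. Control pool 3 was the highest for Zp2, Zp3 and Mos, and delipidated pool 3 for Bmp15, Nobox and Oosp1.

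Summed over the 9 genes, the level was 1122, 681 and 1001 CPM in the control pools and 757, 907 and 1219 CPM in the delipidated pools, about 0.0948% of all counts. Delipidated pool 3 was at the top, then control pools 1 and 3, then delipidated pools 2 and 1, with control pool 2 at the bottom. The group means of 935 ± 228 and 961 ± 236 CPM (SD, n = 3 each) differed by less than the spread within either group. Without Oosp1 the sums were 561, 343 and 498 CPM in the control pools and 375, 480.3 and 648 CPM in the delipidated pools, in the same order of libraries. The 3 libraries with the highest sums were the 3 with the lowest total counts, and the part of depth in this order was not tested.

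A list of 21 other oocyte transcripts, relatives of Oosp1 and well-known maternal mRNAs, gave the same order of libraries. Its summed level was 10687, 6279 and 9164 CPM in the control pools and 7085, 7776 and 11250.5 CPM in the delipidated pools. That shared order holds for sums, to which Oosp1 and Bmp15 gave most of the members' level, and single members had other orders, Zp1 and Zp3 being lowest in control pool 1, Zp2 in delipidated pool 1 and Mos in delipidated pool 3. By edgeR, 0 of the 21 genes were called and 0 were past an unadjusted p of 0.05, with 12 positive and 9 negative log2 fold changes and a median of 0.07. Spin1, the most abundant, was at 2428, 1448 and 1670.4 CPM in the control pools and 1546, 1853 and 2103 CPM in the delipidated pools. The smallest p-values were those of Npm2 (log2 fold change 0.40, SE 0.23), a histone chaperone of the oocyte, and Pabpn1l (1.37, SE 0.80), a poly(A)-binding protein of the embryo.

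Among 8120 other genes with a mean of at least 10 CPM, those nearest to the members' mean profile were 4931406C07Rik, Cep85l, Scrib, Omt2a and Mbd3l2. Likeness was the root mean square difference of centred log2(CPM + 1) values over the 6 libraries, and it was 0.0478, 0.0513, 0.0529, 0.0552 and 0.0576 in that order. Omt2a is the 1 of these 5 that is also in the list of oocyte transcripts. The mean profile of the 8 members tested was 0.02, -0.28 and 0.23 in the control pools and -0.07, -0.03 and 0.12 in the delipidated pools on this log2 scale, lowest in control pool 2 and highest in control pool 3. The members themselves lay further from this mean, from 0.179 for Oosp1 to 0.579 for Zp1. Likeness to the mean is therefore not likeness to any 1 member.

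All 9 genes were placed on build GRCm38, where none overlaps another annotated gene, so none of their counts came from parts shared with another gene. Zp1 (ENSMUSG00000024734) lies at chr19:10914287-10920632 on the minus strand, in 15 parts, and Oosp1 (ENSMUSG00000041857) on the same chromosome at chr19:11667460-11691150, minus strand, in 9 parts. Zp2 (ENSMUSG00000030911) lies at chr7:120126772-120145291, minus strand, with 28 parts, and Zp3 (ENSMUSG00000004948) at chr5:135980099-135988624, plus strand, with 10. Gdf9 (ENSMUSG00000018238) is at chr11:53431023-53437904, plus strand, with 8 parts, and Bmp15 (ENSMUSG00000023279) at chrX:6314107-6320721, minus strand, with 2. Figla (ENSMUSG00000030001, chr6:86016171-86020996, plus strand, 5 parts) and Nobox (ENSMUSG00000029736, chr6:43303674-43309554, minus strand, 16 parts) share chromosome 6. Mos (ENSMUSG00000078365) is a gene of a single exon at chr4:3870657-3872105, minus strand.

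Counts were not spread evenly along the transcripts, and the last exon, which holds the 3′ end, was compared with the rest of each gene. For Oosp1 the last exon held 7.72% of the counts on 37.3% of the length, a ratio of count density, last exon over the rest, of 0.140. For Zp3 it held 2.96% of the counts on 17.0% of the length (ratio 0.149), and for Nobox 5.58% on 29.4% (ratio 0.142). Zp2, for its proximal last exon at chr7:120132340-120132546, had a ratio of 0.203 and Zp1 of 0.0405, where 3.22% of 6545 genes had a lower ratio than Zp1. Over those 6545 genes, with at least 2 exons and a mean of at least 10 CPM, the median ratio was 0.379 and the quartiles 0.184 and 0.779. Ratios under 1 were therefore common in these libraries. A read is counted in every part it touches, which raises the density of short parts over that of long ones. How far this bears on the ratios was not tested, so a low ratio need not mean few reads at the 3′ end.

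The growth factors had the highest ratios among the members with several exons. In Gdf9 the last exon held 77.4% of the counts on 63.5% of the length, a ratio of 1.97 that exceeded that of 92.7% of the genes. In Bmp15 it held 76.2% on 77.8% of the length, a ratio of 0.914. The rest of Gdf9 includes noncoding exons of other transcripts, parts 1 to 3 of 30, 96 and 112 bases. Parts 1 and 2 had 0 counts in every library, which lowers the density of the rest. Bmp15 has 2 parts and Zp2 28, so multiple counting may weigh unequally on the members' ratios, which was not tested. Library by library, the Gdf9 share was 74.9%, 82.8% and 66.0% in the control pools and 73.2%, 85.1% and 78.9% in the delipidated pools. For Bmp15 it was 75.8%, 73.2% and 75.1% in the control pools and 73.3%, 79.0% and 78.0% in the delipidated pools. Both shares overlapped between the groups. For Oosp1 they were 7.88%, 7.03% and 8.23% in the control pools and 5.80%, 11.5% and 6.25% in the delipidated pools, with delipidated pool 2 the highest and delipidated pool 1 the lowest.

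**Figure D3:**
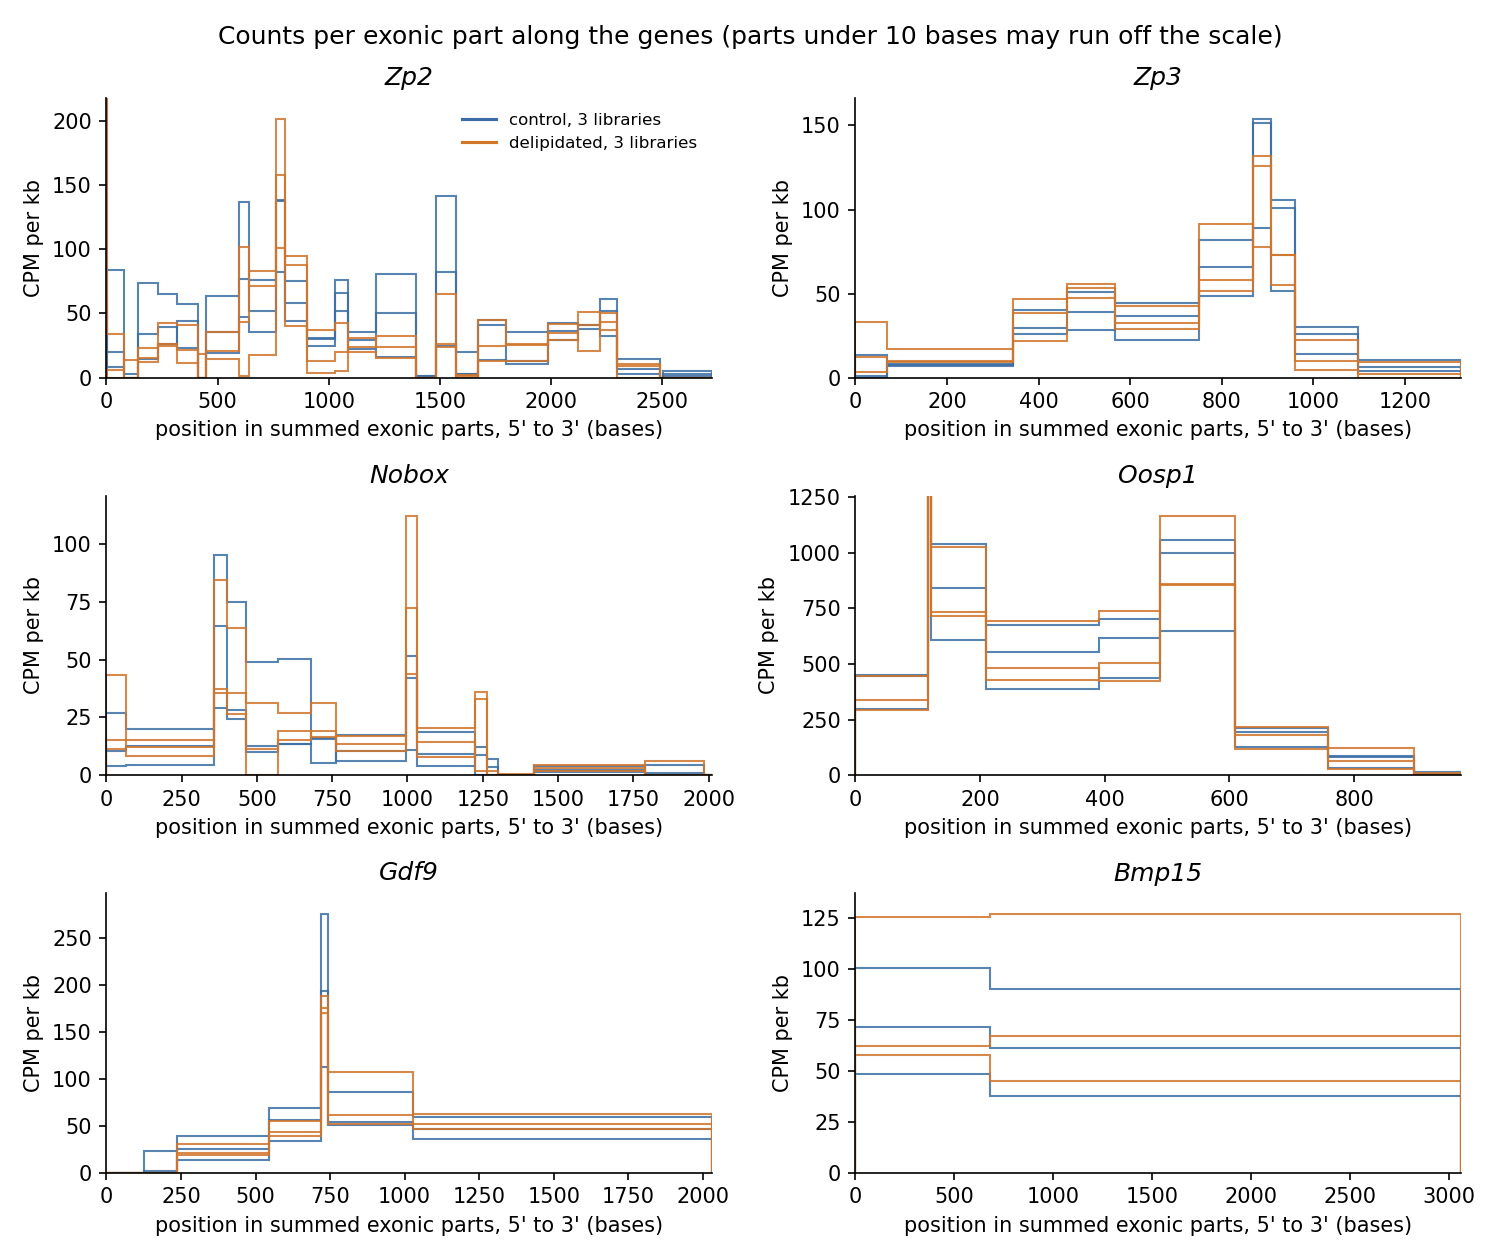
Counts along 6 of the genes in CPM per kb of each exonic part (vertical axis) against the position in the summed parts from 5′ to 3′ in bases (horizontal axis); each line is 1 library, blue for control and orange for delipidated. Lines of both groups run together along the genes, with little signal in the last parts of Zp2, Zp3, Nobox and Oosp1 and signal up to the end in Gdf9 and Bmp15. Reads are counted in every part they touch, which raises short parts over long ones.

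Zp1 in control pool 1, the lowest library for this gene, had 73.9% of its counts on the 5 parts nearest the 5′ end. In the other control pools these parts held 53.7% and 37.6%, and in the delipidated pools 63.3%, 67.0% and 44.4%. From part 8 on, control pool 1 had at most 1 count on any part, while control pool 3 had up to 43 and delipidated pool 1 up to 52.

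Zp2 has annotated transcripts with different 3′ ends. Its distal last exon, part 28 of 220 bases, had 4, 20 and 7 counts in the control pools, or 0.337, 1.21 and 0.532 CPM, and 0 in each delipidated pool. A count of 0 allows up to 0.148, 0.184 and 0.212 CPM in delipidated pools 1, 2 and 3. This part was singled out after its values were seen, as the 1 part with that pattern among the 94 of the members. Of 41743 exonic parts with 20 to 50 counts in all, 2.42% had counts in every control library and 0 in every delipidated library, and 0.695% the reverse. The proximal last exon, whose larger part of 193 bases had 33, 10 and 17 counts in the control pools and 0, 34 and 24 in the delipidated pools, held more counts than the distal exon in control pools 1 and 3 and fewer in control pool 2. Most Zp2 counts lay upstream of both ends.

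Oosp1 likewise has ends 75 bases apart. The 138 bases of part 8, before the nearer end, had 132, 77 and 158 counts in the control pools and 73, 270 and 122 in the delipidated pools. The 75 bases of part 9, found only in the longer form, had 13, 0 and 7 counts in the control pools and 15, 2 and 0 in the delipidated pools. Counts past the nearer end were thus few in both groups.

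The ends of these stored mRNAs are shown because poly(A) tail length bears on their use and decay, and because the ends of Zp2 and Oosp1 are those whose parts were compared above. Each is a site of 30 bases on the strand of the transcript, build GRCm38, ends being from GENCODE M21, with the polyadenylation signals AATAAA and ATTAAA and the cytoplasmic polyadenylation letters TTTTAT and TTTTAAT in capitals. They lie at chr7:120132364-120132393 and chr7:120126776-120126805 for the proximal and distal ends of Zp2 (minus strand), chr11:53437866-53437895 for Gdf9 (plus strand), chr19:11667539-11667568 for the nearer end of Oosp1 (minus strand) and chr4:3870665-3870694 for Mos (minus strand).
Zp2 proximal: actgattggacttgcaAATAAAgagactgc
Zp2 distal: tttgtctttaaactctAATAAAattatcct
Gdf9: TTTTATgtgacggaagAATAAActgttgat
Oosp1: taaaatctgATTAAAgAATAAAaatttccc
Mos: gggcatatttttaggaAATAAAgttaccac

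In the last 100 bases on the transcript strand, AATAAA or ATTAAA was found in 12 of 13 annotated coding ends of the members and in 63.6% of 47990 coding ends of all genes. TTTTAT or TTTTAAT was found in 2 of the 13, those of Gdf9 and the nearer end of Oosp1, and in 15% of all ends. In Oosp1 the letters TTTTAAT lie 45 bases before the end and outside the site printed. A match is a description of the letters, and the lack of one says only that they are not in this window.

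Promoters, taken from RefSeq (GRCm38.p6) as 250 bases before and 50 after the start, were at hand for 5 of the 9 genes, Zp3, Bmp15, Figla, Nobox and Oosp1, with no entry for Zp1, Zp2, Gdf9 and Mos. They were searched for the E-box CANNTG, the letters that FIGLA binds as a dimer and that read the same on both strands. Oosp1 held 5, Figla 4, Zp3 4, Nobox 2 and Bmp15 1. Of 32851 promoters of 300 bases, 72.3% held at least 1, 39.6% at least 2, 6.5% at least 4 and 2.1% at least 5. The Zp3 promoter, chr5:135979855-135980154 on the plus strand, is shown since Zp3 mRNA was present in every library while that of its activator Figla was near or at 0, and the E-boxes, in capitals, begin at -181, -134, -55 and 8 from the start.
Zp3 promoter: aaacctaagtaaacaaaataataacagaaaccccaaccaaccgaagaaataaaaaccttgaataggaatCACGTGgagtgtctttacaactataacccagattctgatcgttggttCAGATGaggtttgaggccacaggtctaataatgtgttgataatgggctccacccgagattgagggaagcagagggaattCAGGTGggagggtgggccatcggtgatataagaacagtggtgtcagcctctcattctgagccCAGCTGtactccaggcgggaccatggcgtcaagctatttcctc

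The genes that work with the members were read from lists chosen by role. Of 6 partners of the zona in fertilization and its block to further sperm, 4 were tested, and by edgeR 0 were called and 0 were past an unadjusted p of 0.05, with 2 positive and 2 negative log2 fold changes and a median of -0.00. Astl encodes ovastacin, the protease that cleaves ZP2, and it was at 1.94, 6.83 and 7.83 CPM in the control pools and 8.89, 9.34 and 7.20 CPM in the delipidated pools. Control pool 1 was the low library and delipidated pool 3 lay within the control range, with a log2 fold change of 0.61 (SE 0.65). Cd9, for the tetraspanin of the egg surface, had a log2 fold change of -0.17 (SE 0.46), and Itga6, the most abundant of the list at a mean of 199.8 CPM, of -0.02.

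Of 8 genes of the oocyte transcription factor network, 7 were tested, 2 with positive and 5 with negative log2 fold changes and a median of -0.03, and 0 were past an unadjusted p of 0.05 by edgeR. Tbpl2, a TBP relative that serves the oocyte, was at 6.07, 1.75 and 7.98 CPM in the control pools and 5.13, 2.33 and 4.02 CPM in the delipidated pools. Its groups overlapped, with control pool 2 the lowest, as it was for Nobox. The log2 fold change was -0.46 for Tbpl2 (SE 0.78), -0.81 for Sohlh2 (SE 1.87) and -0.04 for Foxo3 (SE 0.23), the most abundant of the list at a mean of 238 CPM.

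Of 14 genes of the GDF9 and BMP15 pathway, which are receptors, proteases and SMADs together with Fst, 13 were tested and 0 called by edgeR. At an unadjusted p under 0.05, 1 was higher and 1 lower in delipidated embryos, against 1.15% higher and 1.74% lower of all genes tested, and the median log2 fold change was 0.03, with 7 positive and 6 negative. Acvr1b, a type I receptor, was at 8.10, 6.23 and 3.57 CPM in the control pools and 11.9, 16.2 and 14.5 CPM in the delipidated pools, so every delipidated pool was above every control pool. Tgfbr1, the type I receptor that GDF9 uses, was at 50.5, 46.1 and 48.8 CPM in the control pools and 38.1, 25.9 and 25.1 CPM in the delipidated pools, every delipidated pool being below. Their log2 fold changes were 1.25 (SE 0.52, edgeR adjusted p = 1.00) and -0.71 (SE 0.32, edgeR adjusted p = 1.00), and neither was called. A gene outside the naming rule, Smad4, was chosen after its values were seen, as the other of the 3 genes of this list whose groups did not overlap (8.86% of all genes tested), with a log2 fold change of 0.80 (SE 0.38). Bmpr2, the type II receptor of both factors and the most abundant of the list at a mean of 102 CPM, had a log2 fold change of -0.09 (SE 0.26).

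All 17 genes of the MOS-MAPK pathway and meiotic arrest were tested, 0 were called by edgeR, and at an unadjusted p under 0.05 the count was 0 higher and 2 lower, beside 1.15% higher and 1.74% lower of all genes tested. Rps6ka3, a ribosomal S6 kinase that acts downstream in the cascade that MOS starts, was at 40.8, 21.3 and 43.7 CPM in the control pools and 9.09, 20.6 and 21.4 CPM in the delipidated pools, where delipidated pool 3 was just above control pool 2. The log2 fold change of Rps6ka3 was -1.05 (SE 0.45, edgeR adjusted p = 1.00), and it was not called. Wee2, the oocyte kinase that inhibits CDK1, was the most abundant at 892, 543 and 869 CPM in the control pools and 691, 728 and 969 CPM in the delipidated pools, with a log2 fold change of 0.05 (SE 0.22). The list's median log2 fold change was 0.01, with 9 positive and 8 negative, and its summed level, 2472, 1983 and 2416 CPM in the control pools and 2021, 2189 and 2716 CPM in the delipidated pools, had the order of libraries of the members' sum.

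Genes that the embryo itself turns on were read beside the members as a mark of stage. All 16 genes of a list of 2-cell activation were detected and tested, with 0 called and 0 past an unadjusted p of 0.05 by edgeR, 12 positive and 4 negative log2 fold changes and a median of 0.14. Their summed level was 940.1, 455 and 761 CPM in the control pools and 646, 772 and 1084 CPM in the delipidated pools, so the libraries at the top and the bottom, delipidated pool 3 and control pool 2, were those of the members' sum. Sp110 was the most abundant at a mean of 299.9 CPM with a log2 fold change of 0.34 (SE 0.27). The smallest p-values were those of Pramef25 (log2 fold change 0.86, SE 0.50) and Tdpoz4 (0.74, SE 0.58), and values of Tdpoz, Zscan4 and Usp17l genes are uncertain because reads of near-identical copies are not unique.

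Markers of other cells were read because cumulus cells surround the oocyte and respond to GDF9 and BMP15, and were removed here with hyaluronidase. Of 16 cumulus and granulosa cell markers 14 had counts, Foxl2 and Ptx3 being at 0, and the list summed to 203, 258 and 296 CPM in the control pools and 257, 233 and 165 CPM in the delipidated pools. Most of that was Nr5a2, the most abundant at a mean of 203 CPM, which the 2-cell embryo also expresses. Amhr2 was present in every library, with 172, 301 and 205 counts in the control pools and 201, 385 and 92 in the delipidated pools. Star had 0, 80 and 82 counts in the control pools and 0, 10 and 43 in the delipidated pools, so it was at 0 in 1 pool of each group. The markers that follow were chosen after their values were seen. Tnfaip6 had 9, 44 and 86 counts in the control pools and 17, 110 and 49 in the delipidated pools, and Cyp19a1 had 38, 16 and 30 and then 0, 19 and 77. Cyp11a1 had 4, 0 and 653 counts in the control pools and 0 in each delipidated pool. Low counts were found for Amh, with 0, 5 and 1 in the control pools and 0, 17 and 0 in the delipidated pools, and for Inha, with 0, 2 and 0 and then 0 in each delipidated pool. Inhba had 15, 0 and 20 counts, Fshr 2, 0 and 0, and Fst 0, 0 and 4 in the control pools, and each had 0 in every delipidated pool. The list therefore held markers at 0 throughout, markers with counts in both groups, and 5 with counts in control pools alone. These were Cyp11a1, Inha, Inhba, Fshr and Fst, while Lhcgr had 3 counts in delipidated pool 2 alone. Over all genes, 22855, 22437 and 20582 had counts in the control pools and 17091, 19408 and 20158 in the delipidated pools. The share of all genes with counts in 1 group alone was not measured. Of the 5 markers tested, 0 were called and 0 were past an unadjusted p of 0.05 by edgeR, 2 were positive and 3 negative with a median of -0.08, and the log2 fold changes were -1.61 for Star (SE 1.72), -0.27 for Amhr2 (SE 0.53) and -0.08 for Nr5a2 (SE 0.23). Fst is in this list and in that of the GDF9 and BMP15 pathway.

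Of 11 leukocyte markers 10 had counts, S100a8 being at 0, and they summed to 19.1, 11.6 and 10.6 CPM in the control pools and 6.67, 8.97 and 10.2 CPM in the delipidated pools. Coro1a was the most abundant at a mean of 3.39 CPM with a log2 fold change of -0.91 (SE 1.29), and Cd74 was at -0.94 (SE 1.41). Markers with counts in 1 group alone were picked out after their values were seen. Lyz2 had 2, 8 and 8 counts in the control pools and 0 in each delipidated pool. Tyrobp had 5 counts in control pool 1 alone, S100a9 2 in control pool 3 alone, and Fcer1g 15 in delipidated pool 3 alone. Each delipidated pool had fewer genes with counts than each control pool. The share of all genes with counts in 1 group alone was not measured, which also limits the oviduct markers that follow. Of 5 leukocyte markers tested, 1 was positive and 4 negative with a median of -0.91, and 0 were called and 0 past an unadjusted p of 0.05 by edgeR. Of 9 oviduct epithelium markers 8 had counts, Wfdc2 being at 0, and they summed to 221, 376 and 269 CPM in the control pools and 237, 291 and 189 CPM in the delipidated pools. Epcam, the most abundant at a mean of 145 CPM, and Cdh1 are also expressed by the embryo. The markers that follow in this paragraph were chosen after their values were seen. Ovgp1 had 2, 81 and 17 counts in the control pools and 189, 21 and 10 in the delipidated pools. Krt19 had 0, 3 and 84 counts in the control pools and 0 in each delipidated pool. Pax8 had 0, 23 and 0 and then 0, 0 and 20, and Krt7 had 1, 2 and 0 and then 0, 0 and 19. Foxj1 had 0 in each control pool and then 0, 9 and 2.

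Of 4 oviduct markers tested, by edgeR 0 were called and 2 were lower at an unadjusted p under 0.05 (1.74% of all genes tested), with 2 positive and 2 negative log2 fold changes and a median of -0.32. Cdh1 was at 125, 140.2 and 133 CPM in the control pools and 70.3, 88.6 and 73.8 CPM in the delipidated pools, and Clu at 13.4, 8.22 and 16.6 against 1.73, 6.94 and 4.45 CPM. For both, each delipidated pool lay below each control pool, where the groups did not overlap for 8.86% of all genes tested, with log2 fold changes of -0.78 (SE 0.23, edgeR adjusted p = 1.00) and -1.55 (SE 0.64, edgeR adjusted p = 1.00), and for Epcam it was 0.14 (SE 0.35). The summed levels of these 3 lists did not follow the order of libraries of the members' sum, and their part in the members' values was not tested.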

How the data were processed

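The authors deposited raw counts per exonic part, made, per their processing notes, with bcl2fastq 2.20, Trimmomatic 0.36, STAR 2.5.2b (build mm10) and featureCounts. Of 425461 parts, 33309 lay under 1194 joined identifiers of overlapping genes. Of these, 27968 were assigned to the 1 gene whose GENCODE M21 exons they overlap, and the rest were left out, 2.49% to 2.57% of a library's counts. Parts were then summed per gene (Python 3.11.15, pandas 2.3.3).

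Groups were compared in R 4.3.3 with edgeR 4.0.16 (filterByExpr with minimum count 10 and minimum total count 15, TMM, quasi-likelihood test, no covariate), calling genes at a Benjamini-Hochberg adjusted p under 0.05 over all genes tested with log2 fold changes past -1 or 1. The fit's common coefficient of biological variation came to 0.663. Alternatives were DESeq2 1.42.0, limma 3.58.1 (voom), other scalings, filters and count summaries, a replicate block, and each library left out. All members were named. From each list the genes called, otherwise the 2 with the smallest p, and the most abundant were named. Members and lists were chosen with earlier results of these data known.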

Additional observations from a re-analysis of the deposited data

How the results depend on the processing

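Under all 16 alternatives 0 members were called, under the 15 that bear on it 0 had an unadjusted p under 0.05, and the smallest adjusted p of any member was 0.718 (edgeR with no filter). Over all genes, edgeR called 0 higher and 0 lower, DESeq2 with no filter 9 higher and 40 lower, and edgeR with no filter 5 higher and 25 lower, with more low-count genes tested; the other alternatives called 0. Of 119 log2 fold changes of members, Figla left out, 21 changed sign. With the most-counted part in place of the sum they were -0.0924 for Nobox, 0.0442 for Oosp1 and 0.0314 for Zp2, and Zp1 went from 0.25 to 0.65. Zp3, near 0 throughout, was at 0.000524 with DESeq2, 0.000847 with its size factors in edgeR, 0.0190 with the replicate block and 0.00985 with limma-voom. With each library left out, the ranges were -0.20 to 0.64 for Bmp15, -0.0402 to 0.32 for Gdf9, -0.16 to 0.47 for Nobox, -0.21 to 0.14 for Oosp1, -0.0809 to 0.49 for Zp1, -0.17 to 0.13 for Zp3, -0.64 to -0.13 for Zp2 and -1.32 to -0.01 for Mos. The members' median ranged from -0.09 to 0.03 with a library left out and from -0.01 to 0.09 otherwise. The cause of these changes was not tested. Replicate numbers are not known to pair the pools: correlations of same-number pools were -0.084, 0.070 and 0.043, and the block called 0 genes. Mos and Figla had the fewest counts of the members, and multiple counting of reads makes counts look more precise than they are.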
